A study of Mus musculus with 10 samples.

Results

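The genes described here are the 9 enzymes and partners that write, copy and remove DNA methylation: Dnmt1, Dnmt3a, Dnmt3b, Uhrf1, Tet1, Tet2, Tet3, Idh1 and Idh2. They were picked out by symbol from the 33393 genes in the files, and their 76 annotated transcripts, of 95912 in all, were added up per gene. RNA came from CD34- HSCs, haematopoietic stem cells sorted as Lin- Sca-1+ cKit+ CD34- Flt3- from the femoral marrow of individual C57BL/6 mice aged 8 weeks. Control mice were Reg1flox/flox and carried the floxed alleles of Regnase-1 (gene Zc3h12a) without Cre. The other group was Vav1-iCre; Reg1flox/flox (Reg1Δ/Δ), in which the Vav1 promoter drives Cre in blood cells generally, not in stem cells alone. There were 5 libraries per group in 2 experiments, with replicates 1 to 3 of each group in the first (n = 3 per group) and replicates 4 and 5 in the second (n = 2 per group). All values are TPM, an abundance that is corrected for transcript length and is a share of its library.

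Methylation of cytosine in CpG dinucleotides is set on new sites by the de novo methyltransferases Dnmt3a and Dnmt3b and copied onto the new strand after replication by Dnmt1. Uhrf1 binds half-methylated DNA and brings Dnmt1 there. The dioxygenases Tet1, Tet2 and Tet3 oxidise 5-methylcytosine and need 2-oxoglutarate, which the isocitrate dehydrogenases Idh1 (cytosol) and Idh2 (mitochondria) produce. In human blood, DNMT3A, TET2, IDH1 and IDH2 are among the genes recurrently mutated in clonal haematopoiesis and myeloid leukaemia.

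Zc3h12a, the deleted gene, was higher and not lower in the libraries labelled Reg1Δ/Δ. Its TPM was 1.83, 1.28, 1.60, 1.48 and 6.07 in control replicates 1 to 5 and 3.54, 2.08, 2.51, 10.3 and 8.52 in Reg1Δ/Δ replicates 1 to 5 (log2 difference 0.83, SE 0.28, adjusted p = 0.0314, limma). The call was lost without control replicate 2 or Reg1Δ/Δ replicates 1, 4 or 5 (adjusted p = 0.0595 to 0.0768). These sums cover the whole gene, and the floxed part was not looked at by itself, so they do not measure the deletion. The directions below are given by label only. The experiments also differed in how the TPM was spread over transcript models: 35.0% to 37.7% of the TPM lay on complete protein-coding models in the first and 68.9% to 76.2% in the second. Levels of the 9 enzyme genes are therefore compared within an experiment, and the fitted differences carry the experiment as a covariate. Ranges and means given for other genes pool both experiments unless an experiment is named, and their directions rest on the fit. Ranges of single or complete transcript models of the 9 genes also pool both unless an experiment is named. The depth of the libraries is unknown, since read numbers cannot be had from TPM.

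The markers of the sorted cells themselves differed between the groups. Of 8 stem cell genes, 7 were lower in the libraries labelled Reg1Δ/Δ, where 37.9% of all tested genes were called lower and 15.0% higher. Among the 7 were Hlf (33.9 to 176 TPM in controls and 0.791 to 2.72 in Reg1Δ/Δ) and Procr (19.8 to 37.3 and 0.108 to 1.36). Kit fell as well (log2 difference -1.39, adjusted p = 1.1e-04), and Ly6a, which encodes Sca-1, did not pass the test (0.92, adjusted p = 0.155). Genes of other lineages moved in the same contrast. The summed TPM of 9 B lineage genes was 183 to 1195 in first-experiment controls and 1368 to 1570 in second-experiment controls, against 5.58 to 23.9 and 2.75 to 8.63 in Reg1Δ/Δ. No B lineage gene was at 0 in every library, while Pax5 was at 0 in at least 1 Reg1Δ/Δ library. Of 10 granulocyte and monocyte genes 7 were lower, of 8 erythroid genes 4 were lower (the globins), a share near that of all genes, and 3 higher (Gata1, Klf1 and Epor), and all 4 tested megakaryocyte genes and the 1 tested T lineage gene were lower. Cd34 and Flt3, whose proteins the sort excluded, were measured at 51.9 to 236 and 11.0 to 33.9 TPM in controls and at 9.54 to 19.8 and 1.16 to 2.21 in Reg1Δ/Δ. In a bulk sample, fewer cells of a type and less RNA per cell cannot be told apart, and the part of these cells in the results below was not tested. Control replicate 1 had the lowest B lineage sum of the controls, 183, and it was also the highest first-experiment control for all 9 enzyme genes, those not called below included.

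Added up over all transcript models, complete or not, the 9 genes spanned a wide range of levels. In first-experiment controls, Idh2 was the most abundant (mean 279 TPM), followed by Uhrf1 (99.1), Dnmt1 (48.8), Dnmt3a (44.1), Idh1 (37.1), Dnmt3b (23.6), Tet1 (14.4), Tet3 (8.84) and Tet2 (8.66). Neighbours in this order did not overlap over the 3 libraries except for Dnmt1 with Dnmt3a, Dnmt3a with Idh1, and Tet3 with Tet2. In the first-experiment libraries labelled Reg1Δ/Δ the first 6 places were held in the same order, while Tet1 moved from 7th to last (mean 2.13 TPM). In the second experiment, Dnmt1 (93.5 TPM in controls) stood well above Dnmt3a (17.6), and Tet1 (3.88) overlapped both Tet3 (7.29) and Tet2 (3.05). In the 2 Reg1Δ/Δ libraries of that experiment, Uhrf1 (91.9 TPM), Idh2 (91.9) and Dnmt1 (90.4) had overlapping ranges.

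**Figure D1:**
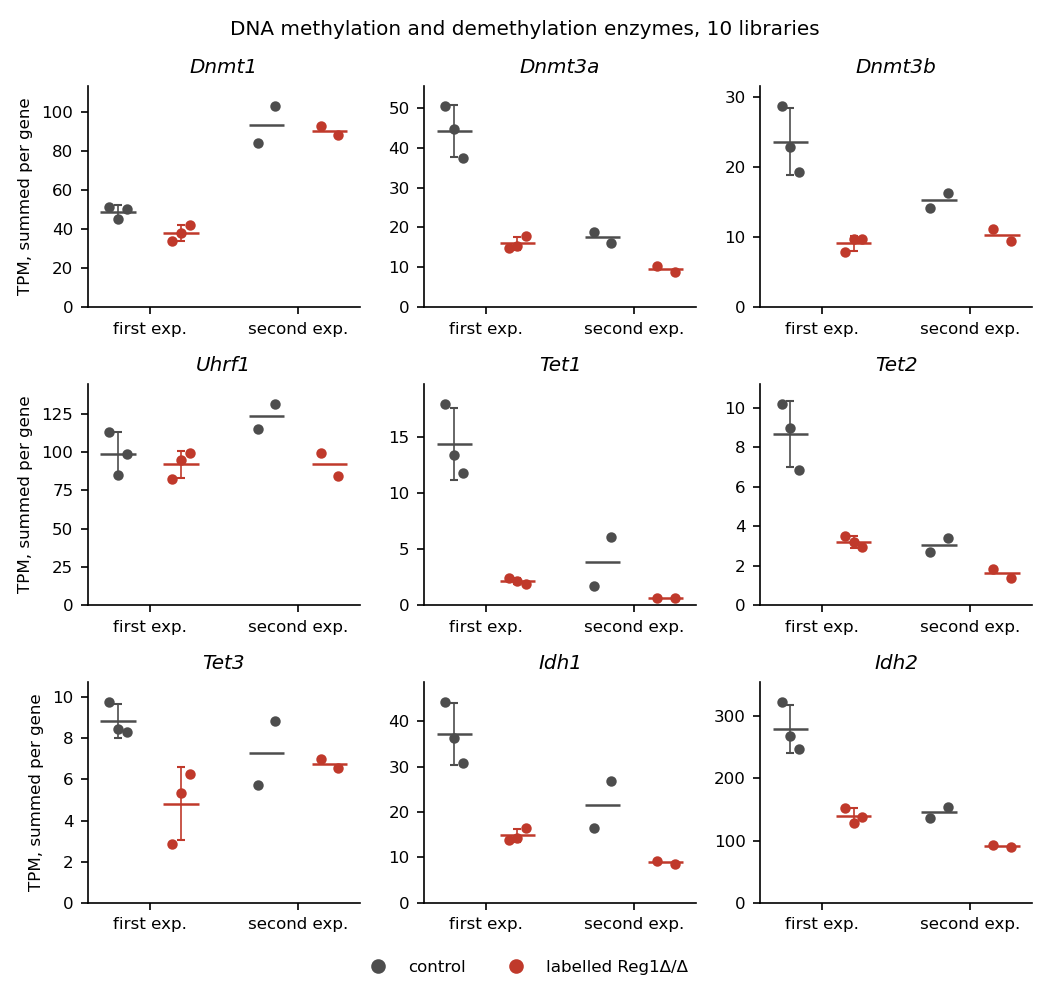
TPM summed per gene (vertical axes, each from 0) for the 9 enzymes in every library, by experiment and label (grey, control, red, labelled Reg1Δ/Δ). Points are libraries, bars are means and error bars are SD where n = 3. Grey and red points do not overlap in either experiment for Dnmt3a, Dnmt3b, Tet1, Tet2, Idh1 and Idh2.

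Of the 9 genes, 6 were lower in the libraries labelled Reg1Δ/Δ and 0 were higher at an adjusted p under 0.05 (limma on log2(TPM + 1), experiment as covariate, adjusted over the 12874 genes tested by the Benjamini-Hochberg method). The 6 were Tet1, Idh1, Dnmt3a, Dnmt3b, Tet2 and Idh2. Over all tested genes, 37.9% were called lower and 15.0% higher, so lower calls were common everywhere. Fewer genes reached 1 TPM in every Reg1Δ/Δ library than in any control of its experiment. The numbers were 12006 to 12048 against 14276 to 14307 in the first experiment and 11256 and 11398 against 13366 and 13717 in the second. The part of this in the lower calls was not tested. The median log2 difference was -0.97 over the 9 genes and -0.25 over all tested genes. Scaling moved that background: the median over all genes became 0.15 with quantile normalization and 0.05 with median-of-ratios scaling, and the calls over all genes went from 4880 lower and 1933 higher to 2627 and 3921, and to 3425 and 3973. Of the 9 genes, 5 and 6 stayed lower under those scalings, and again none was called higher. All 9 passed the filter on low values, 1 TPM or more in 5 or more libraries. Without control replicate 4 the count of lower genes was 8, the 2 additional genes being Dnmt1 (-0.31, adjusted p = 0.0353) and Tet3 (-0.66, adjusted p = 0.0195).

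The same 6 genes had every Reg1Δ/Δ library below every control within both experiments, a pattern met by 31.4% of tested genes, with 12.7% the other way. Within the first experiment alone 7 of the 9 were called lower, Tet3 being the addition (background 38.3% lower and 12.0% higher). In the second experiment alone only Idh2 was called (background 12.3% lower and 3.51% higher). No difference between experiments passed the test of the interaction for any of the 9 genes (lowest adjusted p = 0.319), and 0.443% of all genes did. With 2 libraries per group the second experiment gives wide intervals, so a missed threshold there does not show that a gene was alike.

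**Figure D2:**
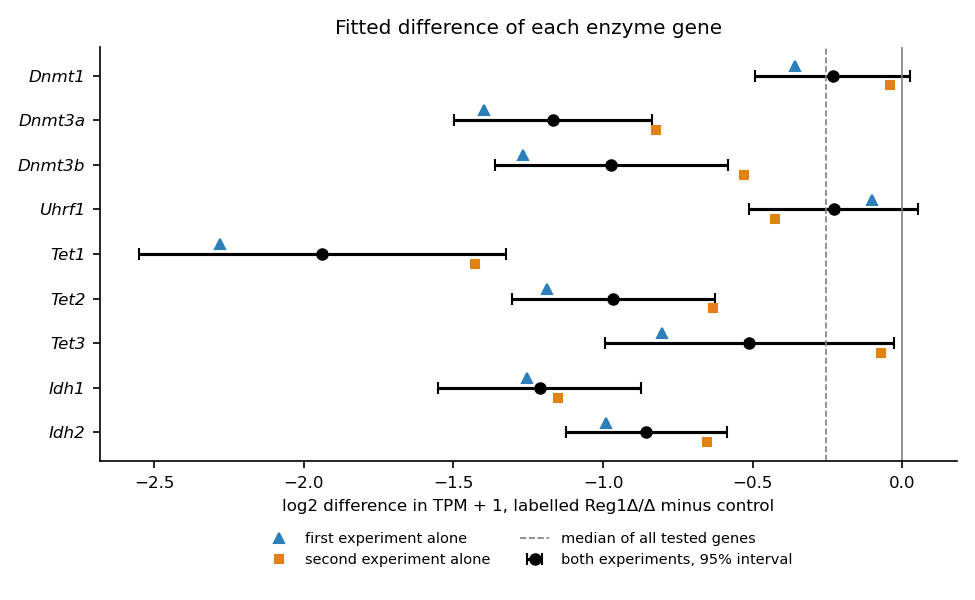
Log2 difference in TPM + 1 between libraries labelled Reg1Δ/Δ and controls (horizontal axis) for each enzyme gene. Circles with bars are the fit over both experiments with its 95% interval, triangles and squares the first and second experiment alone, and the dashed line is the median of all tested genes (-0.25). The intervals of Dnmt1 and Uhrf1 span both 0 and the dashed line, and that of Tet1 lies farthest to the left.

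The maintenance pair, Dnmt1 and Uhrf1, was not called in either direction. Dnmt1 (chr9:20907209-20959888, minus strand, GRCm38) measured 51.4, 45.1 and 50.1 TPM in first-experiment controls and 33.9, 37.8 and 42.2 in Reg1Δ/Δ, and 84.0 and 103 against 92.8 and 88.0 in the second experiment. The groups stood apart in the first experiment only and overlapped in the second. Its fitted difference was -0.23 on the log2 scale (95% interval -0.49 to 0.03, adjusted p = 0.117). Uhrf1 (chr17:56303321-56323486, plus strand) measured 113, 84.9 and 98.9 TPM in controls and 82.2, 94.6 and 99.2 in Reg1Δ/Δ in the first experiment, then 115 and 132 against 99.5 and 84.3. The order was the reverse of that of Dnmt1, with overlap in the first experiment and separation in the second. The Uhrf1 difference was -0.23 as well (-0.51 to 0.05, adjusted p = 0.152). On TPM as deposited, both lay close to the median of all tested genes (-0.25). Median-of-ratios scaling, which raised that median by 0.30, took Dnmt1 to 0.11 and Uhrf1 to 0.12 without a call, and relative to the median they lay at 0.06 and 0.07. Under quantile normalization they lay at -0.27 and -0.40 relative to the median, also without a call, so no direction is given for either.

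Dnmt1 and Uhrf1 were also the only 2 of the 9 genes with an E2F word in a RefSeq promoter window, which is why their windows are shown. E2F factors switch on genes of DNA replication. The table used has 1 or more windows of 300 bases per gene (GRCm38.p6, 250 bases before to 50 after a start site), and all 9 genes were matched, to 15 windows. The words searched on both strands were TTTCCCGC, TTTGGCGC, TTTCGCGC and TTTGCCGC, and 2.26% of all 32851 windows hold at least 1. In the lines below, written 5′ to 3′ on the gene's strand, capitals mark these words. The Dnmt1 window at chr9:20952574-20952873 (minus strand) has 33 CpG, more than 91.4% of windows have, with words beginning 219 bases before and 33 bases after the start site of Dnmt1-203. The Uhrf1 window at chr17:56304063-56304362 (plus strand) also has 33 CpG, with 1 word beginning 185 bases before the start site of Uhrf1-202. The windows at the starts of Dnmt1-201 and Uhrf1-201 hold none of these words, nor does that of Dnmt1-202. Both windows shown lie downstream of the start of Dnmt1-201 or Uhrf1-201, past the end of the window there. Their words thus lie beyond those starts and are not tied to the shorter-listed models alone. Dnmt1-201 carried most of the Dnmt1 TPM, while Dnmt1-203 and Dnmt1-207, which start at the window shown, were not abundant enough to be tested singly.
Dnmt1: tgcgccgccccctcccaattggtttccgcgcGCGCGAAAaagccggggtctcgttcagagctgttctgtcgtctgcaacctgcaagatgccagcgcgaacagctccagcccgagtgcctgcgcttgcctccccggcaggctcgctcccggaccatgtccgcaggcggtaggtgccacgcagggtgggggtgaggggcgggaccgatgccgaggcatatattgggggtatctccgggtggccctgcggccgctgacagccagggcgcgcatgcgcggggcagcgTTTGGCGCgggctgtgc
Uhrf1: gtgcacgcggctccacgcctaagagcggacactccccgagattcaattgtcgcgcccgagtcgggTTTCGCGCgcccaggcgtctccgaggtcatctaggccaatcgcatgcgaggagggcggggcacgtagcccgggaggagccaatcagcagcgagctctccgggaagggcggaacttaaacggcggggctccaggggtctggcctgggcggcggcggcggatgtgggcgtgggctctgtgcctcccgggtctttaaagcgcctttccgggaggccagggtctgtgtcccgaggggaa

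The de novo enzymes both fell. Dnmt3a (chr12:3806007-3914443, plus strand) measured 50.4, 44.6 and 37.3 TPM in first-experiment controls and 14.9, 15.4 and 17.9 in Reg1Δ/Δ, then 19.0 and 16.2 against 10.3 and 8.72. Every Reg1Δ/Δ library was below every control of its experiment. The fitted log2 difference was -1.17 (SE 0.15, adjusted p = 1.4e-04), or 2.24-fold lower on the log2(TPM + 1) scale. Dnmt3b (chr2:153649450-153687730, plus strand) measured 28.7, 22.9 and 19.3 TPM against 7.88, 9.76 and 9.78 in the first experiment, and 14.2 and 16.3 against 11.2 and 9.38 in the second. It showed the same separation, smaller in the second experiment, with a fitted difference of -0.97 (SE 0.17, adjusted p = 0.00115). Antisense genes are annotated opposite both genes, and neither Dnmt3aos nor Dnmt3bos reached 1 TPM in any library (highest 0.299 and 0.581).

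Dnmt3a is read from start sites that lie far apart and yield proteins of different length, so a window from each is given. The upstream site serves Dnmt3a-201 and Dnmt3a-218, each with 908 codons, the long form. An internal site serves Dnmt3a-203 and Dnmt3a-205, each with 689 codons, a short form that lacks the amino-terminal part. The upstream window (chr12:3806910-3807209, start site of Dnmt3a-218) has 47 CpG, more than 98.6% of windows have, and the internal window (chr12:3891494-3891793) has 18. Neither holds an E2F word, so both are in lower case.
Upstream: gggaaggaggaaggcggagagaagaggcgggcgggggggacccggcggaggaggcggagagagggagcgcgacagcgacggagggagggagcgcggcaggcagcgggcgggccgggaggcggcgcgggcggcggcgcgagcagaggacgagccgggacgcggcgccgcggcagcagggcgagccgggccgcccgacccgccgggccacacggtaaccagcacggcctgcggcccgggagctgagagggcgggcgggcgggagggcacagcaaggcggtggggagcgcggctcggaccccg
Internal: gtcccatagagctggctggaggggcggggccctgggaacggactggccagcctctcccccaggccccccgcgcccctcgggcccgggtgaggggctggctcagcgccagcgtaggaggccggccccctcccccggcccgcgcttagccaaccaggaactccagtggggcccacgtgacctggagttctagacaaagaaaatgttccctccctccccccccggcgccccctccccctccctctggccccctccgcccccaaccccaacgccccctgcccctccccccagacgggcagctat

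Transcripts of the upstream site fell. Their summed TPM was 2.03, 1.64 and 1.59 in first-experiment controls and 0.401, 0.369 and 0.360 in Reg1Δ/Δ, then 5.76 and 9.97 against 2.91 and 2.96, with no overlap in either experiment (log2 difference -1.05, exact permutation within experiments, two-sided p = 0.0167, the smallest that the 120 assignments allow, adjusted p = 0.0333 over 12 start groups of the 9 genes). Transcripts of the internal site measured 9.59, 8.19 and 7.03 TPM against 2.81, 3.31 and 3.89 in the first experiment. In the second they measured 3.15 and 5.83 against 6.75 and 4.10, and there the groups overlapped (difference -0.56 over both experiments, exact permutation p = 0.117, adjusted 0.156). The difference between the start sites was itself not tested. Only 21.6% to 23.9% of the Dnmt3a TPM lay on complete coding models in the first experiment and 46.9% to 97.6% in the second. The rest was on short or incomplete models such as Dnmt3a-214 (369 bases, retained intron), at 14.9, 14.1 and 12.4 TPM in first-experiment controls, 3.49, 3.92 and 5.60 in Reg1Δ/Δ, and 0 in all 4 libraries of the second experiment. With complete coding models only, a setting added after the data were seen, the Dnmt3a difference was -1.04 (adjusted p = 0.00182, limma).

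**Figure D3:**
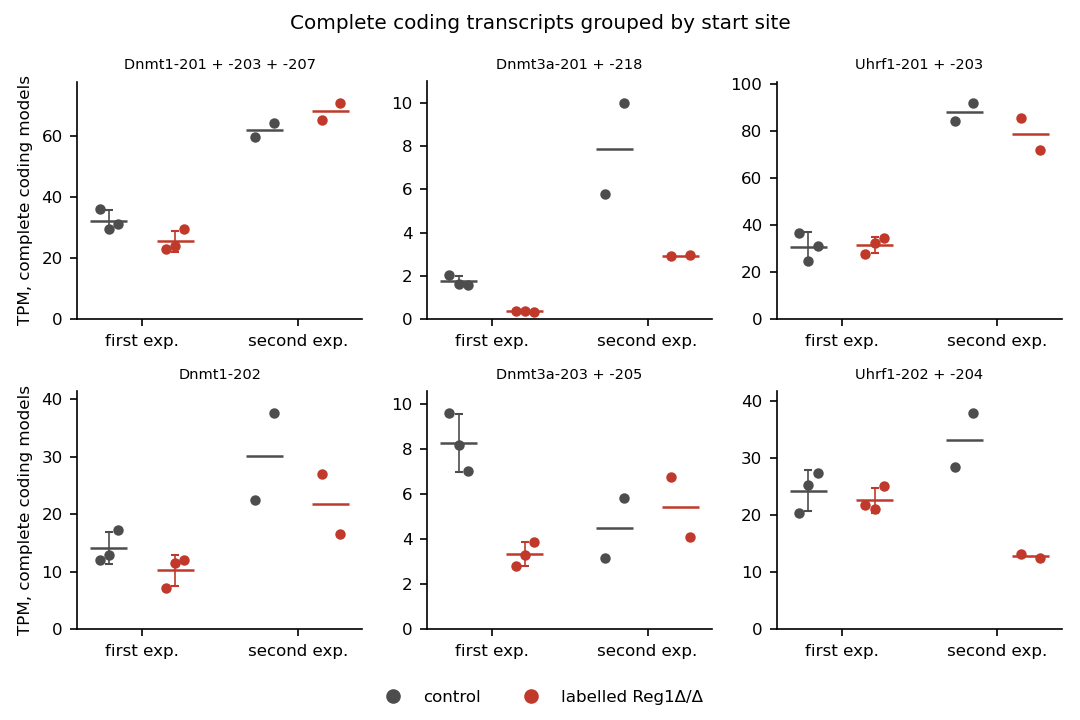
TPM of complete coding transcripts (vertical axes, from 0) grouped by start site for Dnmt1, Dnmt3a and Uhrf1, one panel per start group, in every library by experiment and label. Points are libraries, bars are means and error bars SD where n = 3. The upstream Dnmt3a group (top) is lower in red in both experiments, and the internal group (bottom) in the first only.

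No start group of the maintenance genes passed the test. The 3 complete Dnmt1 models around the somatic start, which include the 1620-codon Dnmt1-201, measured 36.1, 29.7 and 31.2 TPM against 23.1, 24.0 and 29.6 in the first experiment. In the second the order turned, with 59.6 and 64.4 in controls and 65.4 and 70.8 in Reg1Δ/Δ (exact permutation p = 0.25 over both). Dnmt1-202, which starts upstream and has 1501 codons, measured 12.1, 13.0 and 17.2 TPM in first-experiment controls and 7.16, 11.5 and 12.1 in Reg1Δ/Δ. In the second experiment it measured 22.5 and 37.6 against 27.0 and 16.6 (exact permutation p = 0.133 over both). For Uhrf1, the 2 models starting at the window printed above measured 28.4 and 37.9 TPM in second-experiment controls and 13.1 and 12.5 in Reg1Δ/Δ, but overlapped in the first experiment (exact permutation p = 0.1). Of the 30 transcripts of the 9 genes that could be tested singly, 7 were called lower and 0 higher, where 14.9% and 6.40% of all 31937 tested transcripts were called. Among the 7 were Dnmt3a-201 (-0.92, adjusted p = 0.0268), Idh1-201 (-1.19, adjusted p = 3.4e-04) and Idh2-201 (-0.74, adjusted p = 0.00329), all by limma.

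Among the TET dioxygenases, Tet1 showed the largest fall of the 9 genes when all transcript models were added up. On complete coding models alone the log2(TPM + 1) differences of Tet1 and Idh1 were -1.20 and -1.21. The pseudocount of 1 shrinks differences near 1 TPM, where the complete Tet1 models lay, so these 2 values do not rank the falls. Tet1 (chr10:62804570-62908996, minus strand) measured 17.9, 13.4 and 11.8 TPM in first-experiment controls and 2.39, 2.12 and 1.89 in Reg1Δ/Δ, then 1.65 and 6.11 against 0.631 and 0.600. The groups did not overlap, although the second-experiment controls differed widely from each other. The log2 difference was -1.94 (SE 0.27, adjusted p = 2.7e-04). The only complete coding model above 1 TPM on average in controls, Tet1-206 (2039 codons), was low throughout, at 0.399 to 2.82 TPM in controls and 0 to 0.439 in Reg1Δ/Δ. Complete coding models held only 6.47% to 12.1% of the Tet1 TPM in the first experiment, and with those models alone the adjusted p was 2.4e-04.

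Tet2 (chr3:133463679-133545139, minus strand) measured 10.2, 8.96 and 6.84 TPM against 3.51, 3.18 and 2.92 in the first experiment and 2.71 and 3.38 against 1.82 and 1.39 in the second. All Reg1Δ/Δ libraries were below the controls of their experiment, with a difference of -0.97 (SE 0.15, adjusted p = 5.2e-04). Quantile normalization ended this call (-0.08, adjusted p = 0.71), and so did a fit without the experiment (adjusted p = 0.0624). Its 2 complete coding models together measured 1.15 to 1.97 TPM in controls and 0.603 to 0.781 in Reg1Δ/Δ. Tet3 (chr6:83362373-83459084, minus strand) measured 9.78, 8.43 and 8.31 TPM against 2.86, 5.35 and 6.26 in the first experiment, where the groups were apart, and 5.74 and 8.84 against 6.98 and 6.55 in the second, where they overlapped. Its difference of -0.51 (SE 0.22) did not pass the test (adjusted p = 0.0718) and changed sign under quantile normalization (0.24). On complete coding models alone Tet3 passed (-0.45, adjusted p = 0.0484), and so it did where 1 TPM was required in every library (-0.51, adjusted p = 0.0493). The 3 dioxygenases together summed to 26.9 to 37.9 TPM in first-experiment controls and 8.75 to 11.1 in Reg1Δ/Δ, and to 10.1 to 18.3 against 8.54 to 9.44 in the second experiment.

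Both isocitrate dehydrogenases fell. Idh1 (chr1:65158616-65186500, minus strand) measured 44.3, 36.3 and 30.7 TPM in first-experiment controls and 13.9, 14.3 and 16.4 in Reg1Δ/Δ, then 16.4 and 26.8 against 9.21 and 8.58. Its log2 difference was -1.21 (SE 0.15, adjusted p = 1.3e-04), 2.32-fold lower. The size was close in the experiments taken alone, -1.25 and -1.15, although only the first was called. Idh1-201, with 414 codons, carried most of the TPM, at 16.4 to 31.4 in controls and 8.04 to 12.6 in Reg1Δ/Δ. Idh2 (chr7:80094846-80115392, minus strand) measured 323, 267 and 247 TPM against 152, 128 and 137, then 136 and 154 against 93.5 and 90.2. It was the only gene of the 9 called in each experiment by itself, with a fitted difference of -0.86 (SE 0.12, adjusted p = 2.5e-04), or 1.81-fold lower.

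**Figure D4:**
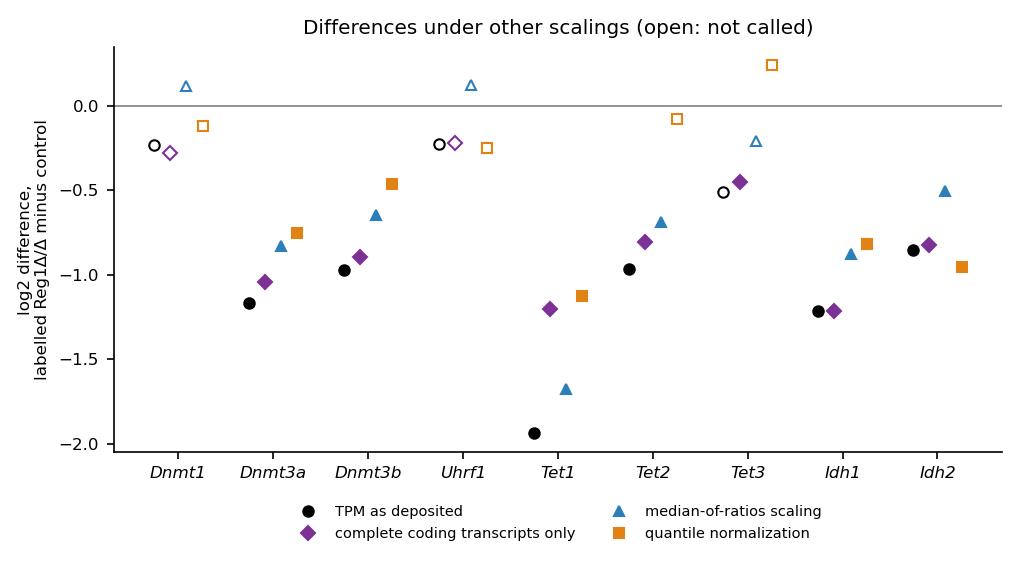
Log2 difference between libraries labelled Reg1Δ/Δ and controls (vertical axis) for each enzyme gene under 4 ways of scaling, filled where the adjusted p was under 0.05 and open where it was not. Dnmt3a, Dnmt3b, Tet1, Idh1 and Idh2 are filled and below 0 in all 4, while Dnmt1, Uhrf1 and Tet3 cross 0 in 1 setting each.

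The balance between the enzymes was compared as ratios within a library, which do not depend on a common scaling. Dnmt1 stood 1.02, 1.01 and 1.34 times as high as Dnmt3a in first-experiment controls and 2.28, 2.45 and 2.35 times in Reg1Δ/Δ, and 4.43 and 6.36 against 9.0 and 10.1 times in the second experiment. The level of this ratio depends on the models counted. In the first experiment, complete coding models held 89.2% to 98.9% of the Dnmt1 TPM and 21.6% to 23.9% of the Dnmt3a TPM. This ratio was higher in every Reg1Δ/Δ library than in the controls of its experiment (log2 difference 0.99, exact permutation within experiments, two-sided p = 0.0167, adjusted p = 0.0417 over 5 ratios). The Idh1 to Idh2 ratio was lower in every Reg1Δ/Δ library, at 0.124 to 0.137 and 0.120 to 0.174 in controls of the first and second experiment against 0.0912 to 0.120 and 0.0951 to 0.0986 (difference -0.42, the same p values). Without Reg1Δ/Δ replicate 4 or 5 the exact permutation p of this ratio was 0.05, at the threshold. The remaining 3 ratios did not pass. Dnmt3b to Dnmt3a differed by 0.18 (exact permutation p = 0.1), Tet2 to Tet3 by -0.62 (p = 0.0833), and Uhrf1 to Dnmt1 by 0.0060 (p = 0.967), the last being above the controls in the first experiment and below them in the second. Without Reg1Δ/Δ replicate 1, the Tet2 to Tet3 ratio differed by -0.87 (exact permutation p = 0.0167).

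The wider set of 70 genes around these enzymes did not move as one. Of 63 tested, 20 were called higher and 10 lower, where 15.0% of all tested genes were called higher and 37.9% lower, and the median log2 difference was 0.14 against -0.25 over all genes. Median-of-ratios scaling gave 40 higher and 8 lower, beside 3973 and 3425 of all 12874 tested genes, and leaving out Reg1Δ/Δ replicate 3 gave 13 and 9, beside 1548 and 4495. Among 7 tested partners of maintenance and de novo methylation, Uhrf2, a relative of Uhrf1, was the only call (40.9 TPM in controls and 23.1 in Reg1Δ/Δ on average, log2 difference -0.78, adjusted p = 0.00139). Pcna, the replication clamp, differed by 0.04 (adjusted p = 0.789). Of 5 tested methyl-CpG readers, Mbd2 rose (0.61, adjusted p = 0.00176) and Zbtb38 fell (-1.05, adjusted p = 9.1e-04, and 0.0507 under quantile normalization).

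Of 10 tested excision and repair genes, 2 rose and 3 fell, shares near those of all tested genes (15.0% and 37.9%). Gadd45g rose (4.83 to 10.5 TPM on average, log2 difference 0.97, adjusted p = 2.3e-04), while its relative Gadd45b fell (5.06 to 1.33, -1.36, adjusted p = 2.4e-04). Tdg, the glycosylase that excises oxidised methylcytosine, differed by 0.32 (adjusted p = 0.0487), and the glycosylase Mbd4 by -0.45 (adjusted p = 0.026), a sign that turned under quantile normalization (0.23). Parp1 fell by 0.31 on the log2 scale (adjusted p = 0.0272), but stood at 0.044 under median-of-ratios scaling. These 3 calls were narrow. Tdg lost its call without any single library other than control replicate 5 or Reg1Δ/Δ replicate 1 (adjusted p = 0.0767 to 0.118). Mbd4 lost it without control replicate 1 or 3 or Reg1Δ/Δ replicate 2 or 3 (0.0622 to 0.066), and Parp1 without control replicate 3 or 4 or Reg1Δ/Δ replicate 1, 2 or 4 (0.052 to 0.0692). Gadd45b lost it under quantile normalization (adjusted p = 0.128). Of 4 tested TET partners and CXXC proteins, 2 fell, again near the 37.9% of all tested genes for so short a list. Cxxc5, a CXXC zinc finger protein, had 31.0, 33.9, 31.4, 32.0 and 59.5 TPM in control replicates 1 to 5 and 2.47 to 3.12 in Reg1Δ/Δ (-3.30, adjusted p = 7.1e-07). Ogt, the O-GlcNAc transferase that binds TET proteins, fell by 0.97 (adjusted p = 3.8e-04).

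In the S-adenosylmethionine list, 3 of 9 tested genes rose and 2 fell (15.0% and 37.9% over all tested genes, here and for the next list). Mthfd1, a folate cycle enzyme, went from 180 to 462 TPM on average (1.40, adjusted p = 5.1e-04), and the mitochondrial serine hydroxymethyltransferase Shmt2 from 136 to 209 (0.62, adjusted p = 0.00428). Its cytosolic relative Shmt1 fell from 85.8 to 38.5 (-1.05, adjusted p = 2.7e-04). Ahcy, which clears S-adenosylhomocysteine, rose by 0.58 (adjusted p = 0.00868), a call lost in either experiment alone (adjusted p = 0.0588 and 0.15). In the list of 2-oxoglutarate, succinate and 2-hydroxyglutarate metabolism, 7 of 13 rose and 1 fell. Idh3a, a subunit of the NAD-dependent isocitrate dehydrogenase, rose from 90.1 to 149 TPM (0.71, adjusted p = 5.2e-04), opposite in sign to Idh1 and Idh2. The succinate dehydrogenase subunits Sdhb (0.48, adjusted p = 0.00214) and Sdhd (0.66, adjusted p = 5.5e-04) rose, and glutamate dehydrogenase Glud1 fell (-0.88, adjusted p = 2.5e-04).

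Dnmt1 and Uhrf1 are used in replicating cells, so 15 genes of S phase and proliferation were listed beside them. Of these, 7 rose and 0 fell, beside 15.0% and 37.9% of all tested genes. Ccne1, cyclin E1, rose from 32.4 to 87.8 TPM on average (1.52, adjusted p = 3.7e-04), Ccna2 by 0.44 (adjusted p = 0.0246) and Rrm2 by 0.62 (adjusted p = 0.0252). Ccna2 lost its call without Reg1Δ/Δ replicate 2 or 3 (adjusted p = 0.0524 and 0.0635), and Rrm2 without Reg1Δ/Δ replicate 1 or 3 (0.0571 and 0.0591). Mki67 measured -0.39 (adjusted p = 0.101) and Top2a -0.14 (adjusted p = 0.399).

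**Figure D5:**
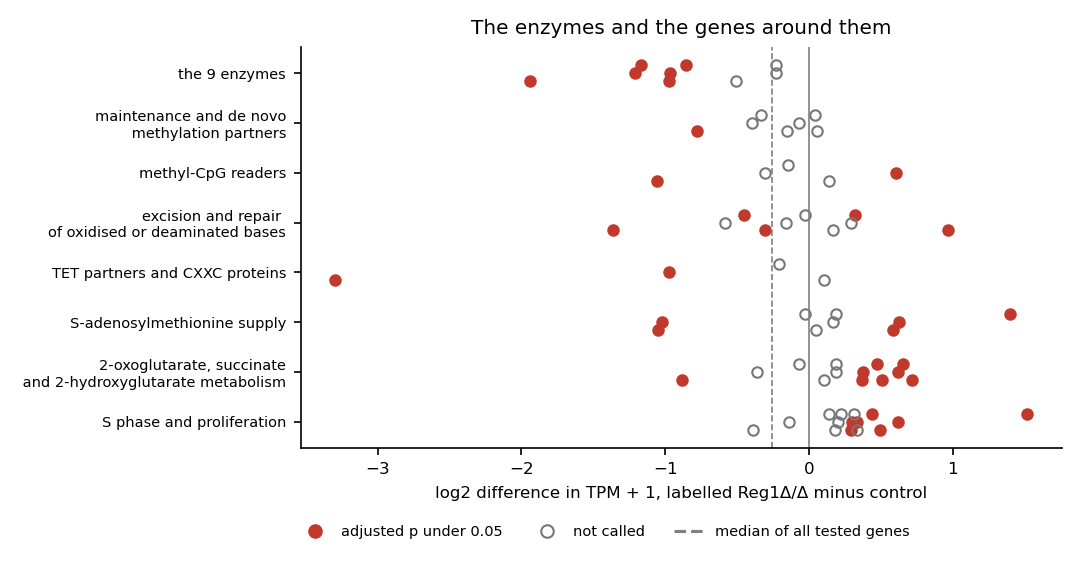
Log2 difference in TPM + 1 (horizontal axis) of the 9 enzymes and of 63 tested genes in 7 related lists. Each point is 1 gene, filled red where the adjusted p was under 0.05 and open grey where it was not, and the dashed line is the median of all tested genes. The called enzymes lie left of that line, while the called genes of the S phase list lie right of 0.

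The genes whose pattern over the 10 libraries was most like that of Tet1, the called enzyme gene with the largest fall over all its transcript models, were Pxylp1, Dgkg and Exoc6b. Their log2(TPM + 1) values, centred within each experiment, lay 0.18, 0.19 and 0.19 from those of Tet1 (root mean square). Their own differences were -1.96, -1.88 and -1.85.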

How the data were processed

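RNA-seq values of 10 libraries were used, 5 per group. The authors aligned the reads with STAR to GRCm38, estimated TPM with Salmon 0.9.1 on GENCODE M17, and deposited log2 values of TPM + 1 for each transcript. The labels and the study's methods name different cDNA kits. The header of 1 file (Reg1Δ/Δ replicate 5) carries the name of another sample, and its sample was taken from the deposition record.

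Each value was turned back into TPM (2 raised to it, minus 1), and TPM was added up per gene. Genes reaching 1 TPM in 5 libraries were tested with limma 3.58.1 (R 4.3.3) on log2(TPM + 1), with a pseudocount of 1 and the experiment as covariate, and adjusted over all genes (Benjamini-Hochberg, threshold 0.05). Every adjusted p without another test named is limma's. Start groups and ratios were tested by exact permutation within experiments. Start groups hold complete coding models with starts within 500 bases of the next. Loci and transcript models are those of GENCODE M21, which holds 99.83% of the transcripts. Scripts were tested on simulated data. The members and gene lists were chosen with earlier results of these data known. Named genes are the 9 members, up to 3 called genes per list and direction by lowest adjusted p, the 3 genes most like the member of largest fall, and Zc3h12a. Marker genes, and Pcna, Mki67 and Top2a beside them, were named after their values were seen. Some genes of the lists are counted but not reported here by name.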

Additional observations from a re-analysis of the deposited data

Results flagged for a closer look

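Single libraries stood apart from the 4 others of their group for 3 genes around the enzymes and for none of the 9 enzymes themselves. Uhrf2 measured 27.1 TPM in control replicate 4, below the other controls. Tdg measured 59.1 TPM in control replicate 5, above the other controls, and 49.1 TPM in Reg1Δ/Δ replicate 1, below the other libraries of that group. Cxxc5 measured 59.5 TPM in control replicate 5, above the other controls. These are 4 of 62 groups of 5 examined on the log2 scale by the gap to the nearest library over the whole range. Each of these groups pools 3 libraries of the first and 2 of the second experiment, which differ in level, so the 3.1 that chance would give among alike libraries is only a rough guide.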

How the results depend on the processing

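Dnmt3a, Dnmt3b, Tet1, Idh1 and Idh2 kept their direction under every alternative run on them, and the calls of the first 4 were lost only in the second experiment alone (Tet1 could not be tested where 1 TPM was required in every library). Of the 9 enzymes, 1 was called lower in the second experiment alone, and 6 to 8 with single libraries left out. The counts over all genes fell to 716 higher and 3052 lower without the experiment as covariate, and to 452 and 1581 in the second experiment alone. They were 3921 and 2627 under quantile normalization and 3973 higher under median-of-ratios scaling. Of the related genes, 8 rose and 5 fell without the covariate, 2 and 2 did in the second experiment alone, 40 rose under median-of-ratios scaling, and 13 to 19 rose with single libraries left out. The cause was not tested. Without the covariate Tet2 (adjusted p = 0.0624), Zbtb38 (0.348), Shmt1 (0.164) and Ahcy (0.685) were among the genes that lost their calls. Signs turned for Dnmt1 (0.11), Uhrf1 (0.12) and Parp1 (0.044) under median-of-ratios scaling and for Tet3 (0.24) and Mbd4 (0.23) under quantile normalization. These scalings raised the median of all genes by 0.30 and 0.41, so a turn of sign there is relative to a moved background. The Uhrf1 to Dnmt1 ratio, near 0, turned to -0.39 in the second experiment alone and ranged from -0.057 to 0.091 with single libraries left out. Title numbers within an experiment did not pair the libraries (correlations of deviations 0.03, 0.18 and 0.07 in the first, -0.05 in the second). With the replicate block 6 enzymes were lower and 0 higher, over all genes 4545 and 1703, and of the related genes 9 lower and 16 higher. Of the genes named in the report by rule, Tdg (adjusted p = 0.0638), Parp1 (0.0504) and Zc3h12a (0.0505) lost their calls with that block. Of the single transcripts of the 9 enzymes, 7 were called in the main fit and 5 with the block. Without the filter on low values 6 were called, and 6 under median-of-ratios scaling. Ratios within 1 experiment are too small for the permutation test to pass. Depth is unknown, so no counting error could be given.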
